A study of Homo sapiens with 6 samples.

Results

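The 8 genes described here encode parts of the JAK-STAT pathway, namely the cytokine receptor subunit IL6ST, the kinases JAK1, JAK2 and TYK2, and the transcription factors STAT2, STAT3, STAT5B and STAT6. They were chosen by name, out of 13140 protein-coding genes with at least 1 listed exon bin. A bin is a stretch of 20 nt in which reads were counted, and it was given to a gene when its centre lay in an exon of a protein-coding transcript (GENCODE version 44 on GRCh37), on the transcribed strand. The exons of the 8 genes hold 2459 bins. Of these, 582 of 816781 listed bins belonged to the SK-Mel-103 sample, 839 of 780750 to replicate 1 of UACC-62, and 886 of 862731 to replicate 3. The data are RIP-Seq of CELF1 (CUGBP1 in the labels), an RNA-binding protein, in SK-Mel-103 and UACC-62, both established human melanoma lines. Cells were fixed with formaldehyde and lysed, CELF1 was pulled down with an antibody, and the RNA recovered (IP) was compared with RNA from that lysate (input). The labels name no treatment besides culture in serum, and no IP with a control antibody was analysed here. There were 3 IP samples, 1 of SK-Mel-103 and 2 biological replicates of UACC-62, each set against its own input. Where 3 values follow each other, they are those of SK-Mel-103, of replicate 1 and of replicate 3 of UACC-62, in this order.

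Cytokines of the interleukin-6 family bind receptors that share the subunit IL6ST (gp130). The kinases JAK1, JAK2 and TYK2 sit on the inner side of such receptors and phosphorylate STAT proteins, which then pair, enter the nucleus and drive transcription. STAT3 is the main STAT of interleukin-6 signals and is known in melanoma for its part in survival and immune evasion. CELF1 is known to bind GU-rich elements (GREs), often in 3′ UTRs, and to act on the decay, translation and splicing of mRNAs. The comparison of IP with input asks which of these mRNAs CELF1 was recovered with.

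The lists hold only bins that passed the peak caller, with at least 4 IP reads in each, so that IP and input reads outside the listed bins are unknown and each value below is conditional on bins having passed. Listed bins held 10958459 to 14436573 IP reads and 8453517 to 10161917 input reads per sample, and 9.69% to 29.2% of them had no input read. Of the melanocyte lineage genes, SOX10 had 864, 2115 and 1080 input reads. MLANA had 18 input reads in SK-Mel-103, against 826 and 926 in UACC-62. MITF had 18 input reads in SK-Mel-103, against 6034 and 5000 in UACC-62, while TYR, DCT and S100B had none in SK-Mel-103 and PMEL had no listed exon bin in any sample. The leukocyte and keratinocyte markers CD3E, KRT5 and KRT14 had none in any sample, and PTPRC had 3 input reads in all. Within the exons of the 8 genes, 0.901% to 1.41% of the IP reads lay in bins on the opposite strand, and no other gene shared the bins counted.

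The 3′ UTRs differed in the GREs they contain, which are shown first because the IP values are set beside them. A GRE was an 11-nt stretch within 2 mismatches of UGUUUGUUUGU or UGUGUGUGUGU on the transcript. At this tolerance 5 of the 8 genes had at least 1 GRE, as did 55.3% of the 19708 genes searched. Without mismatches only STAT5B and JAK2 had one, against 7.65% of all genes. In both it was a run of 45 nt, of which 10 of 18 overlapping matches were exact in STAT5B and 16 of 18 in JAK2. STAT3 had 2 separate GREs with 2 mismatches each, IL6ST had 4 matches at 3 places and STAT2 had 1, whereas JAK1, STAT6 and TYK2 had none. The lines below give the 5′ part of each run, the GREs of STAT3 and the IL6ST site that lies nearest to its peaks. Each is 30 nt of the transcript strand in GRCh37, 5′ to 3′, with the bases covered by a match in capitals.
STAT5B, chr17:40353555-40353584, minus strand: cgagUAUGUGUUUGUGUGUGUGUGUGUGUG
JAK2, chr9:5128075-5128104, plus strand: ggguUUUGUGUGUGUGUGUGUGUGUGUGUG
STAT3 near the stop codon, chr17:40467449-40467478, minus strand: aaaugucuugUGUUGUUUUGUuccccugcc
STAT3 further along, chr17:40466415-40466444, minus strand: ucccucauccUGUUUGUUUUAggaauccug
IL6ST, chr5:55232808-55232837, minus strand: uagucucaaUAUGUAUGUGUAUugaauaua

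In the STAT5B 3′ UTR of 2564 nt the run began in the bin centred 188 nt past the stop codon. In the JAK2 3′ UTR of 3160 nt it began in the bin centred 1283 nt past it. The places of the other GREs are likewise the centres of the bins that hold their 5′ ends. The STAT3 GREs lay 295 and 1335 nt into a 3′ UTR of 2424 nt. The IL6ST site lay 4082 nt into a 3′ UTR of 5990 nt, the longest of the 8.

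The level of each mRNA in the input is given as input reads in listed bins per kb of exon and per 1000000 listed input reads. Input is known only in listed bins, while the length counts every exon bin. The level therefore also depends on how many bins were listed. Of the 265 exon bins of STAT3, 74 were listed in SK-Mel-103, against 152 and 175 in UACC-62. Of the 374 of JAK2, 24 were, against 100 and 71. IL6ST had the highest level of the 8 in UACC-62, with 62.3 and 54.8 in replicates 1 and 3, and had 24.2 in SK-Mel-103. STAT3 followed with 41.8 and 43.3 in UACC-62, and 8.88 in SK-Mel-103. JAK1, at 20.8 and 24.1 in UACC-62 and 27.9 in SK-Mel-103, differed little between the lines. STAT6 had 20.8 and 15.2 in UACC-62 and 5.02 in SK-Mel-103. For IL6ST, STAT3 and STAT6, both UACC-62 values were thus above the SK-Mel-103 value. Over the 3 samples STAT5B had 5.43 to 7.64, TYK2 2.09 to 6.88, STAT2 3.12 to 4.51 and JAK2 0.838 to 4.12. With 1 SK-Mel-103 sample these levels carry no test. In these bulk values fewer cells with a transcript, less transcript per cell and fewer listed bins cannot be told apart.

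**Figure D1:**
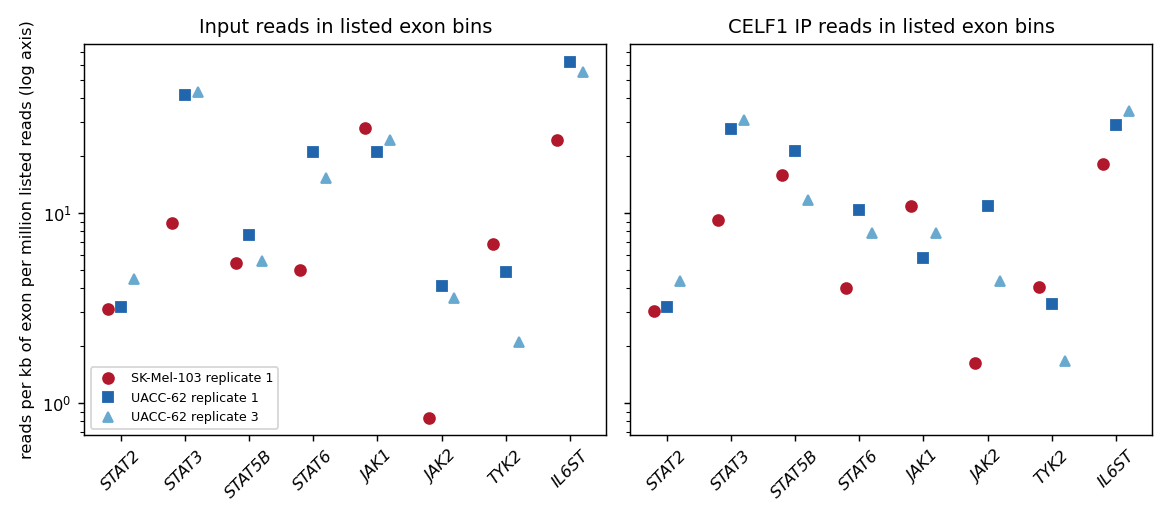
Input (left) and IP (right) reads in the listed exon bins of the 8 genes, per kb of exon and per 1000000 listed reads, on a log axis, with 1 point per sample. STAT3 and IL6ST had the highest input levels in UACC-62, and JAK2 had the lowest point, at 0.838 in SK-Mel-103.

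IL6ST, the receptor subunit, was the only member with a peak common to the 3 samples, where a peak is a bin of over 30 IP reads with a p-value under 0.05. Among the 10030 genes tested, 17.2% had such a common peak and 40.2% had a peak in at least 1 sample, which applied to 4 of the 8 members (STAT3, STAT5B, STAT6 and IL6ST). IL6ST had 2, 6 and 23 peaks in the 3 samples, and 2 of them were common. Both lay in the 3′ UTR. The bin at chr5:55232501-55232520, 4402 nt past the stop codon, held 73, 80 and 111 IP reads against 33, 52 and 49 input reads. The bin at chr5:55232661-55232680, 4242 nt past it, held 56, 75 and 64 IP reads against 29, 64 and 49 input reads. IP exceeded input in each sample in both bins as read counts, and log2 IP over input, corrected for the totals of the lists, was 0.75, 0.45 and 0.47 in the first bin and 0.55, 0.07 and -0.32 in the second.

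The sequences of these bins and of the richest bins of STAT3, STAT5B and STAT6 are shown with 5 nt on each side and the triplet UGU in capitals, since UGU occurs in both GRE forms. The richest bin of a gene was the one with the highest IP count in its lowest sample.
IL6ST at 4402 nt, chr5:55232496-55232525, minus strand: uagcucuaaucccuuaaguaaauuuuaaga
IL6ST at 4242 nt, chr5:55232656-55232685, minus strand: uugcUGUuuuaccccaucuacucuaacuuc
STAT3 at 1055 nt, chr17:40466696-40466725, minus strand: gguuuaaggagaaucuaagcauuuuagacu
STAT5B at 488 nt, chr17:40353256-40353285, minus strand: auauaaccgugauUGUcucugcuuuucuuc
STAT6 at 687 nt, chr12:57489656-57489685, minus strand: gcUGUGUgaacgUGUaUGUaccuaggauau

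UGU was present in the richest window of 4 of the 8 genes, and in 44.4% of 1358423 windows of 30 nt from all annotated 3′ UTRs. The richest window of IL6ST and that of STAT3 had none, and that of STAT6 had 4.

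The listed bins of IL6ST all but ended well before its annotated 3′ end. The last bin listed in all 3 samples was 4422 nt past the stop codon, beside the peak at 4402 nt. Of the 78 bins in the 1558 nt after it, 1 was listed, in replicate 3 of UACC-62, where it had 5 IP reads. The 200 nt from 4201 to 4400 nt were the richest window of the 3′ UTR in each sample, with 14.9%, 16.1% and 10.1% of its IP reads. Of the 40-nt stretches of the IL6ST transcript, 4.15% also occur in another annotated gene, 197 in the coding region and 176 in the 3′ UTR, and reads from these could be shared.

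Summed over its exons, IL6ST had 1813, 3016 and 4522 IP reads against 1870, 5785 and 4460 input reads. This gave a log2 IP over input of -0.42 for SK-Mel-103 and of -1.10 and -0.68 for UACC-62 (mean -0.89 ± 0.30, SD, n = 2). All 3 values were below the median of the 10030 tested genes, which was -0.17, -0.46 and -0.26. The only member with a common peak was thus, over its whole mRNA, below the typical gene. In the fit described next its change of -0.39 ± 0.17 did not pass (edgeR adjusted p = 0.069), but without SK-Mel-103 replicate 1 it was -0.51 and passed (edgeR adjusted p = 0.0093).

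IP and input were then compared across all 10030 genes with edgeR's quasi-likelihood test, with each IP paired with its own input. Changes are log2 IP over input relative to the average gene, with standard errors. They come from listed bins alone, and input in the other exon bins is unknown, so each call is conditional on bins having passed. Of all genes, 30.7% were called higher in the IP and 29.9% lower at an adjusted p under 0.05. Of the 8 members, STAT5B and JAK2 were called higher and JAK1 and STAT6 lower, and 4 passed in neither direction. The median of the 8 was -0.12, against 0.06 for all genes. With list totals in place of TMM scaling the median of all genes moved by -0.34 and the calls split into 2172 higher and 3964 lower instead of 3078 and 3003. Without the pairing 1703 genes were called higher and 1886 lower.

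**Figure D2:**
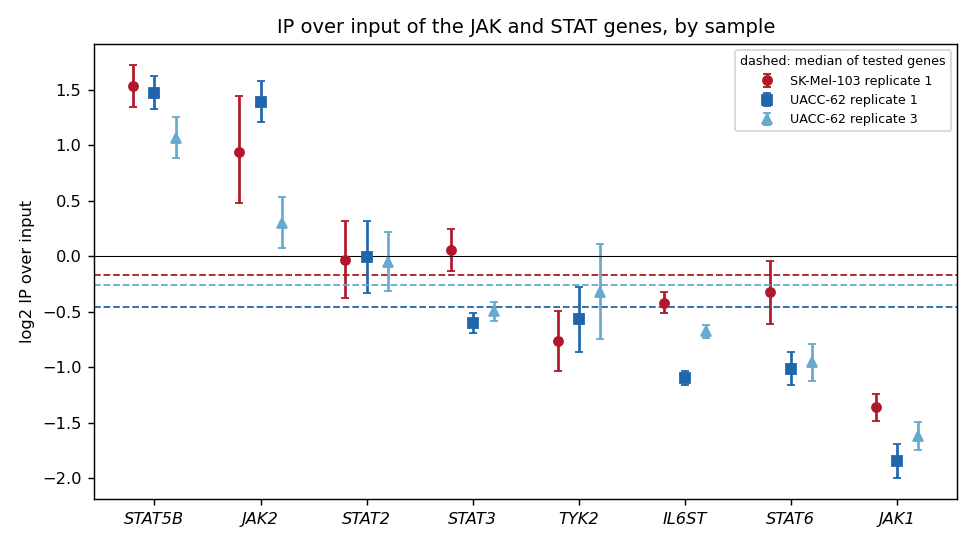
Log2 IP over input of each gene (vertical axis) in each of the 3 samples, ordered by the fitted change, with exact 95% binomial intervals that cover counting error only. Dashed lines mark the median of the 10030 tested genes in the sample of the same colour; STAT5B lay above them in all 3 samples, from 1.07 to 1.53, and JAK1 below them, from -1.84 to -1.36.

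Among the kinases, JAK1 and JAK2 were at opposite ends. JAK1, which serves most cytokine receptors of this class, had 798, 442 and 761 IP reads against 1585, 1423 and 1443 input reads. Its log2 IP over input was -1.36, -1.84 and -1.62, which placed it between percentiles 5.75 and 11.3 of the tested genes. The fitted change was -1.27 ± 0.15 (2.40-fold lower, edgeR adjusted p = 7.9e-05). The call held in each alternative that was computed. No bin of JAK1 passed 30 IP reads in any sample, the highest holding 25.

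JAK2, the kinase of growth hormone, erythropoietin and interferon-gamma receptors, had 133, 917 and 475 IP reads against 53, 313 and 237 input reads. The ratio on the log2 scale was 0.94 for SK-Mel-103, and 1.39 and 0.30 for UACC-62. The replicates of UACC-62 thus lay on either side of the SK-Mel-103 value (mean 0.85 ± 0.77, SD, n = 2), and all 3 were above the median gene. The fitted change was 1.25 ± 0.24 (2.38-fold higher, edgeR adjusted p = 0.0016), and it was 0.84 without UACC-62 replicate 1 and 1.56 without UACC-62 replicate 3, with the call kept in both. JAK2 was thinly covered. Of its 374 exon bins 24, 100 and 71 were listed, with a median of 4.5, 7 and 6 IP reads, and 5, 18 and 13 of the listed bins had no input read. No JAK2 bin passed 30 IP reads. IP and input in its unlisted bins are unknown, so the excess over the whole mRNA is not known.

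TYK2, a kinase of interferon and interleukin-12 family receptors, had 109 to 201 IP reads and 84 to 263 input reads. The log2 ratios were -0.76, -0.57 and -0.33, in each case below the median gene. The fitted change of -0.22 ± 0.19 did not pass (edgeR adjusted p = 0.34). It was -1.43 over the 3′ UTR bins alone (edgeR adjusted p = 0.00096), where TYK2 has an annotated 3′ UTR of only 304 nt in its main transcript.

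Among the STATs, STAT5B stood out. STAT5B carries growth hormone and prolactin signals and shares part of its coding sequence with STAT5A. It had 1093, 1521 and 1069 IP reads against 291, 492 and 314 input reads, the largest excess of IP over input of the 8 genes. Its log2 IP over input of 1.53 for SK-Mel-103 lay beside 1.47 and 1.07 for UACC-62 (mean 1.27 ± 0.28, SD, n = 2), and the 3 values stood at percentiles 93.1, 91.0 and 82.6 of the tested genes. All 3 samples were on the same side of the median gene, and SK-Mel-103 lay within 1 SD of the UACC-62 mean. The fitted change was 1.71 ± 0.17 (3.26-fold higher, edgeR adjusted p = 3.8e-05), and it lay between 1.54 and 1.84 when each sample was left out. STAT5B had 4, 7 and 2 peaks, but none at the same bin in all 3 samples. Its richest bin, at chr17:40353261-40353280, held 29, 64 and 32 IP reads against 4, 8 and 11 input reads, and missed the threshold of 30 in SK-Mel-103 by 2 reads. Listed bins without input numbered 13 of 99, 18 of 135 and 20 of 118.

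STAT5A was set beside STAT5B because 11.6% of the 40-nt stretches of STAT5B, all in the coding region, also occur in STAT5A. STAT5A had no listed bin in SK-Mel-103, while the replicates of UACC-62 had 47 and 178 IP reads against 18 and 39 input reads. The log2 ratios were 1.18 and 1.46, and the fitted change, which rests on UACC-62 alone, was 1.80 ± 0.32 (edgeR adjusted p = 0.0013). In the 3′ UTR of STAT5B, where no 40-nt stretch is shared with STAT5A, log2 IP over input was 1.63, 1.79 and 1.18, and in its coding region it was 0.74, -0.10 and 0.41.

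STAT3 was close to the average gene. It had 535, 1653 and 2349 IP reads against 398, 2250 and 2041 input reads. Log2 IP over input came to 0.05 for SK-Mel-103, and to -0.60 and -0.50 for UACC-62 (mean -0.55 ± 0.08, SD, n = 2). SK-Mel-103 was above its median gene and both UACC-62 replicates were below theirs, at percentiles 58.0, 45.7 and 42.6. The fitted change was -0.01 ± 0.16 (edgeR adjusted p = 0.97). The sign was not stable across alternatives. Over the 65 bins listed in all 3 samples the change was 0.43 (edgeR adjusted p = 0.025), over 3′ UTR bins it was 0.25 (edgeR adjusted p = 0.20), and with list totals it was -0.35 (edgeR adjusted p = 0.18).

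STAT3 nevertheless had peaks in UACC-62. There were 5 in replicate 1 and 13 in replicate 3, with 5 bins in common between them, and none in SK-Mel-103, so that no STAT3 bin was a common peak. The richest bin of STAT3, at chr17:40466701-40466720 and 1055 nt past the stop codon, held 24, 36 and 43 IP reads against 3, 12 and 11 input reads. Its log2 IP over input was 2.27, 1.35 and 1.18, above the value of the whole gene in each sample. The highest count, 80 IP reads against 37 input reads, was at chr17:40467281-40467300 in UACC-62 replicate 3. In replicate 1 that bin held 41 IP reads against 45 of input, and in SK-Mel-103 17 against 13. The absence of a SK-Mel-103 peak went with the lower STAT3 level in that line, and the part of the level in the count of peaks was not tested.

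STAT6, the STAT of interleukin-4 and interleukin-13, had 215, 572 and 556 IP reads against 208, 1036 and 665 input reads. The log2 ratios were -0.33, -1.01 and -0.96, each below the median gene. The fitted change of -0.43 ± 0.16 (1.35-fold lower, edgeR adjusted p = 0.038) was just past the threshold. Its adjusted p was 0.30 without the pairing, 0.19 without UACC-62 replicate 1 and 0.29 without UACC-62 replicate 3, so that the call rested on each of these choices. STAT6 had 1 peak, of 33 IP reads against 30 input reads, in UACC-62 replicate 3, in the window with 4 UGU triplets shown above. Corrected for the totals of the lists, the log2 IP over input of this bin was -0.49, -0.76 and -0.56, below 0 in each sample.

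STAT2, which acts with interferons, was close to 0 in every sample, at -0.03, -0.01 and -0.05. Each value was above the median gene, at percentiles 55.3, 63.6 and 56.2. It had 160 to 301 IP reads and no bin above 19 IP reads. The fitted change of 0.32 ± 0.18 did not pass (edgeR adjusted p = 0.14).

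In the order of the fitted changes, STAT5B was followed by JAK2, STAT2, STAT3, TYK2, IL6ST, STAT6 and JAK1. STAT5B and JAK2 differed by 0.46, or 1.53 times the combined standard error. JAK2 was above STAT2 by 0.93 and STAT6 above JAK1 by 0.83, which were 3.10 and 3.84 times the combined standard error and held in all 3 samples. The differences between the neighbours from STAT2 to STAT6 were 0.04 to 0.32, at most 1.37 times the combined standard error.

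The distribution of reads along the mRNA also differed between members. In STAT3, 74.6%, 72.8% and 72.5% of the IP reads lay in the 3′ UTR, against 63.6%, 56.8% and 51.0% of the input reads. The coding region of STAT3 had log2 IP over input of -0.47, -1.27 and -1.34, and its 3′ UTR of 0.28, -0.24 and 0.01. The difference between 3′ UTR and coding region was therefore 0.75, 1.03 and 1.35, at percentiles 71.3, 79.4 and 92.3 of the 6050, 5932 and 6068 genes with at least 20 input reads in both regions. The median difference over those genes was 0.34, 0.31 and 0.26. In STAT5B the 3′ UTR exceeded the coding region by 0.90, 1.89 and 0.78, and in JAK2 by 1.42, 1.45 and 0.43. These 3 genes were above the median difference in all 3 samples.

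In the other direction, TYK2 had the lower value in its 3′ UTR, by -1.43, -1.49 and -1.31, at percentiles 0.51, 0.67 and 0.96 of the genes. The TYK2 3′ UTR had 3 to 6 listed bins with 25 to 90 input reads, so that these differences are coarse. STAT6 differed by -0.68, -0.23 and -0.32, and JAK1 by 0.02, -0.47 and -0.40, both below the median in each sample. IL6ST, at 0.34, 0.33 and 0.53, was near the median. STAT2 had at least 20 input reads in its coding region in UACC-62 alone, where the difference was -0.15 and -0.17.

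**Figure D3:**
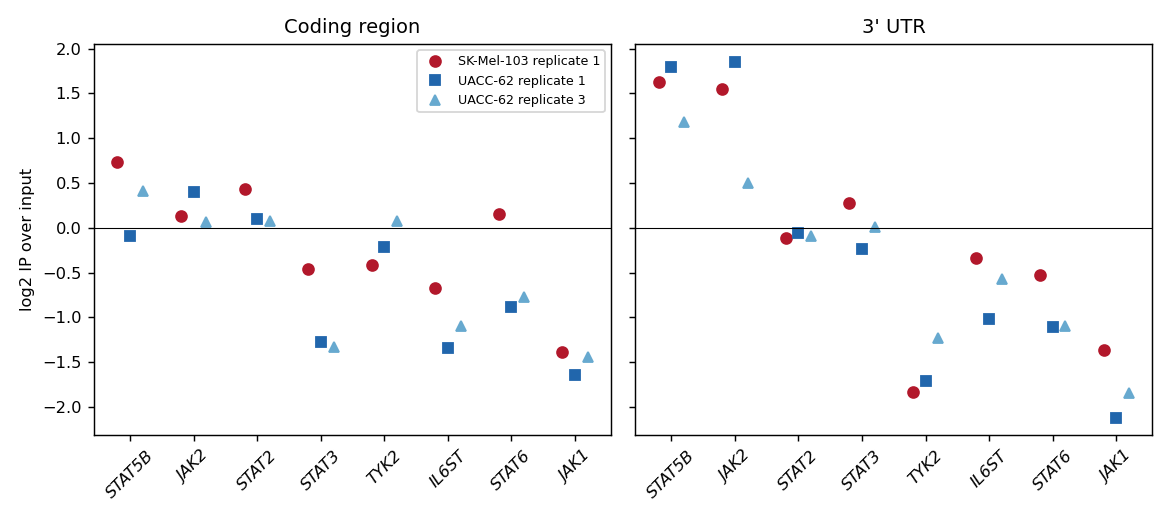
Log2 IP over input in the coding region (left) and in the 3′ UTR (right) of each gene, with 1 point per sample and genes ordered by the fitted change. STAT5B, JAK2, STAT3 and IL6ST were higher in the 3′ UTR than in the coding region in each sample. TYK2, STAT6 and STAT2 were lower, STAT2 with only 15 input reads in its coding region in SK-Mel-103.

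Along the 3′ UTR of STAT5B, IP exceeded input throughout. Each window of 200 nt had a log2 IP over input of at least 0.71 in every sample. The richest window was 401 to 600 nt past the stop codon in each of them, with 157, 219 and 108 IP reads against 25, 37 and 40 input reads. Its log2 IP over input was 2.23, 2.38 and 0.71. This window lay past the GU run. Within 50 nt of the run itself 6, 8 and 6 of 8 bins were listed, with 44, 95 and 50 IP reads against 9, 20 and 10 input reads, a log2 IP over input of 1.80, 2.04 and 1.52. The values of the whole 3′ UTR, given above, were lower in each sample. The richest window was above the run in SK-Mel-103 and replicate 1 of UACC-62, and below it in replicate 3. Reads of 40 nt that lie within a repeat as long as the run can align to many places, and the alignment kept up to 20 of them.

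Around the GU run of JAK2 the counts were smaller and uneven. Within 50 nt of it there were 4, 57 and 10 IP reads against 3, 3 and 1 input reads, in 1, 4 and 1 of 8 listed bins. Around the STAT3 GRE at 295 nt there were 5, 83 and 104 IP reads against 8, 82 and 54 input reads, and around the one at 1335 nt 5, 25 and 26 against 3, 15 and 20. The log2 ratios were -0.96, -0.14 and 0.24 at the first and 0.21, 0.54 and -0.34 at the second, so that no direction was shared by the 3 samples. Near the second JAK2 site, at 1603 nt, there were 10, 20 and 12 IP reads against 0, 2 and 0 input reads. At the IL6ST site at 4082 nt the log2 ratio was 0.02, 0.15 and 0.51, above the value of the whole gene in each sample. This was not particular to the site, since the window of 4401 to 4600 nt had 0.84, 0.64 and 0.73. At its site at 922 nt it was 0.04, -1.18 and -0.80, below the whole gene in both UACC-62 replicates, and no bin was listed near the site at 5662 nt. The STAT2 site at 685 nt had 0.47, -1.03 and -0.76.

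**Figure D4:**
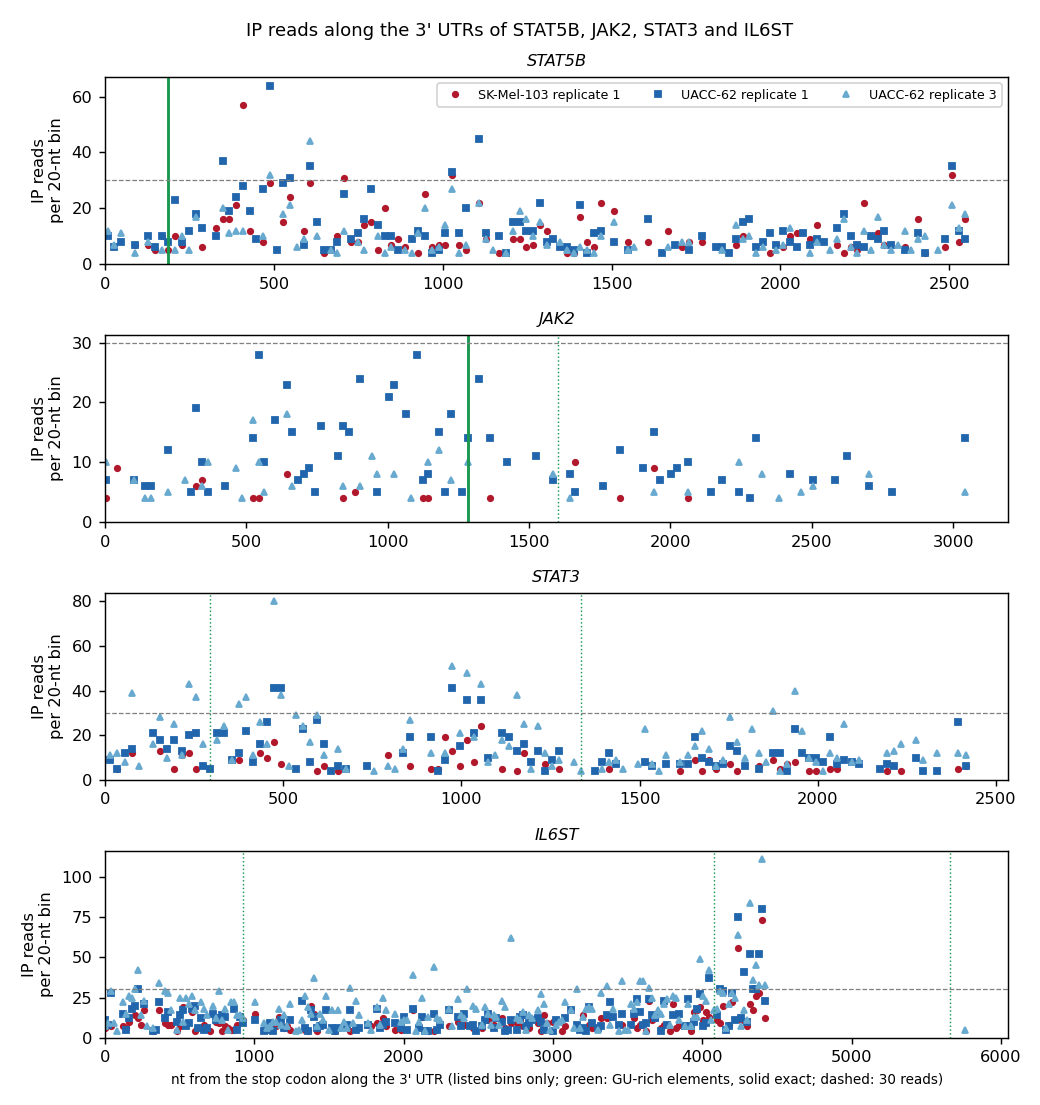
IP reads per listed 20-nt bin (vertical axis) against the distance from the stop codon in nt along the 3′ UTRs of STAT5B, JAK2, STAT3 and IL6ST, with 1 symbol per sample. Green lines mark GREs, solid where a match is exact, and the dashed line marks 30 reads; the IL6ST count is highest at 4402 nt in each sample and no bin is listed in all samples past 4422 nt.

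Across all tested genes, the 2 members with an exact GRE were part of a broad pattern. Of 1034 tested genes with an exact GRE in the 3′ UTR, 64.3% were called higher in the IP, against 27.0% of those without, and the median changes were 1.02 and -0.02. Genes with an exact GRE also had longer 3′ UTRs, with a median of 4350 nt against 1733 nt, and the part of length in this difference was not tested. At 2 mismatches the shares were 39.9% and 11.4%, with median 3′ UTRs of 2732 and 665 nt, and the part of length was again not tested. Of the 5 members with a GRE at that tolerance 2 were called higher, and of the 3 without none was.

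The bin counts of the replicates were compared as a description, over bins listed in both. In UACC-62 Pearson's r of the IP counts between replicates was 0.75 over 140 bins in STAT3, 0.72 over 93 bins in STAT5B and 0.71 over 228 bins in IL6ST. It was 0.56 over 50 bins in STAT6, 0.40 over 42 in JAK2, 0.25 over 47 in JAK1 and -0.16 over 15 in STAT2. TYK2 had 4 such bins and was left out. The input counts correlated at 0.71 in STAT3, 0.48 in STAT5B, 0.85 in IL6ST and 0.78 in JAK1. They correlated at 0.81 in STAT6, 0.71 in JAK2 and 0.06 in STAT2. The counts of one gene share its local mappability and base composition, and neighbouring bins are not independent.

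Whether the lines differed in IP over input was tested as an interaction of fraction and line, with the spread of SK-Mel-103 assumed to be that of UACC-62. By edgeR 8.08% of the 10030 genes passed and 0 of the 8 members did. At an unadjusted p under 0.05 there was 1 member, TYK2, with a difference of SK-Mel-103 minus UACC-62 of -0.61 ± 0.30 (edgeR adjusted p = 0.20). DESeq2 also called 0 members. The largest positive differences were 0.36 ± 0.27 in STAT6 and 0.30 ± 0.29 in STAT3 (edgeR adjusted p = 0.47 and 0.60). STAT3 and STAT6 thus had higher values in SK-Mel-103 by read ratio, but not beyond the error of a comparison with 1 sample in 1 line.

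Of 56 other pathway genes 47 had a listed bin and 38 were tested. Among these, 15 were called higher in the IP and 4 lower, with a median change of 0.47 against 0.06 for all genes, of which 30.7% were called higher and 29.9% lower. The list was put together with earlier results of these data known. Inhibitors made up the largest group, with 6 of 13 tested higher and 2 lower (PTPN11 and SOCS4). Of 11 receptors 4 were higher (IL6R, LIFR, IFNAR2 and IL7R) and 1 lower (IFNGR2). Of 7 targets of STATs 3 were higher (CCND1, JUNB and FOS), and of 4 adaptors 1 was (STAM). Of 2 other kinases and STATs 1 was higher, STAT5A, and 1 lower. LIF was the only ligand tested and did not pass, at 0.34 ± 0.19. Apart from CCND1, PTPN11 and STAT5A, the genes in these counts are named because the counts are small, after their values had been seen.

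A peak common to the 3 samples was found in 6 of the 38 tested pathway genes, close to the 17.2% of all tested genes, and in none of the untested ones. Of the 6, 4 were inhibitors and 2 targets. CCND1, the cyclin of the G1 phase, had 131 common peaks, with 51389, 19262 and 22065 IP reads against 8713, 2451 and 1812 input reads, and a fitted change of 2.98 ± 0.26. SOCS5, a suppressor of cytokine signalling, had 43 common peaks and a change of 2.34 ± 0.23. PIAS1, named as an inhibitor of activated STATs, had 5 and a change of 2.80 ± 0.18. PTPN1, a phosphatase that acts on JAK2 and TYK2, had 14 and a change of 0.75 ± 0.17. These 4 passed with edgeR adjusted p of 2.4e-05, 3.5e-05, 1.4e-05 and 0.0031. PTPN11, a phosphatase of receptor signals, had 6 common peaks although it was called lower, at -1.17 ± 0.19 (edgeR adjusted p = 0.00050), and MCL1, a survival factor, had 23 and did not pass, at 0.22 ± 0.18. Input was 6997 to 8314 reads in PTPN11 and 3358 to 6892 in MCL1. It was lower in PIAS1, at 259 to 434 reads, and in SOCS5, at 958 to 1385, which also had common peaks. JAK1, with 1423 to 1585 input reads, had no common peak. The part of the input level in common peaks was not tested.

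Of the 38 genes, 3 passed the test of the line difference, close to the 8.08% of all tested genes, and are likewise named after the fact. IL7R, LEPR and BCL2L1 differed by -1.70, -2.28 and -0.93 as SK-Mel-103 minus UACC-62. LEPR was thinly covered, with 4, 6 and 13 listed bins. These held 27, 43 and 73 IP reads against 48, 28 and 21 input reads.

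**Figure D5:**
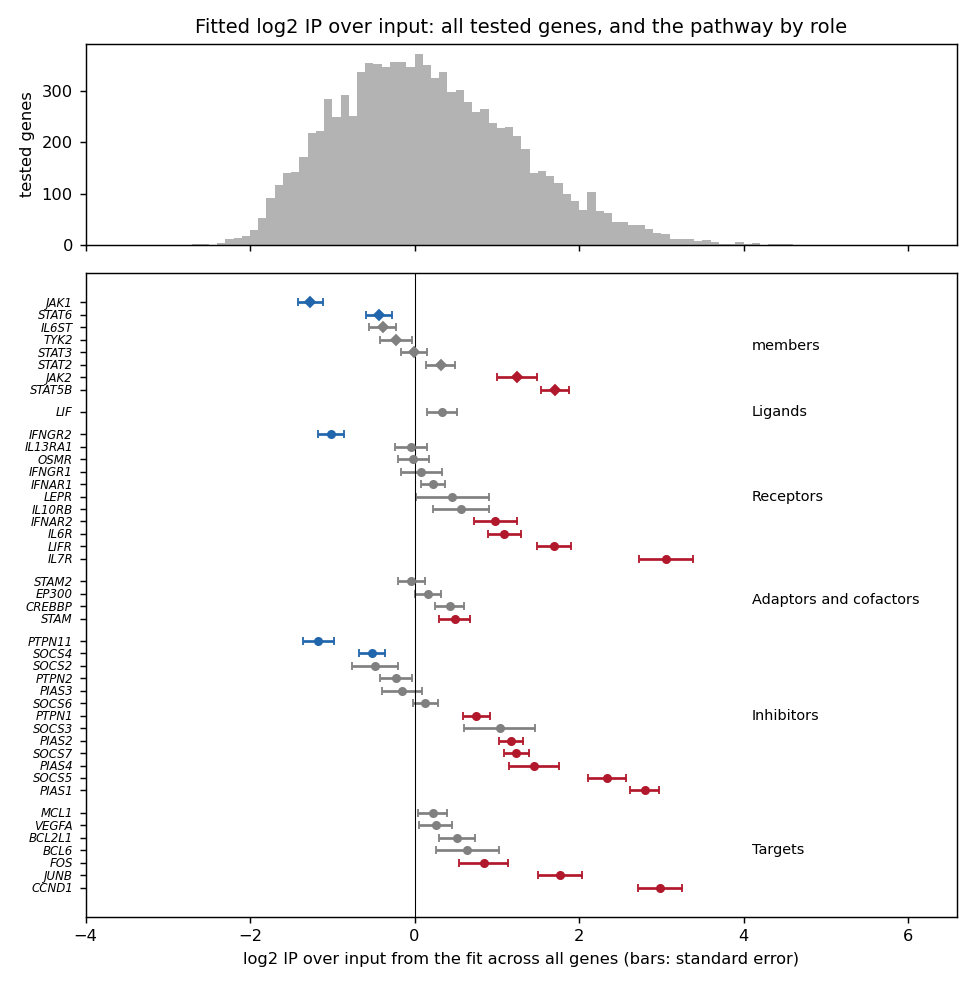
Top, the fitted log2 IP over input of the 10030 tested genes. Bottom, the 8 members and the tested ligand, receptor, adaptor, inhibitor and target genes on the same axis, with standard errors; red and blue mark genes called higher and lower, and grey those that did not pass. STAT5B (1.71) and JAK2 (1.25) lie in the right part of the distribution and JAK1 (-1.27) in the left.

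The genes nearest to STAT3 in log2 IP over input were sought by the Euclidean distance of their 3 values. The candidates were 1640 protein-coding genes outside these lists with a common peak in the 3′ UTR, which STAT3 itself lacked. Nearness concerns these 3 values alone, and such a search always returns some nearest genes. WDR77 was nearest, at 0.08, with values of 0.05, -0.54 and -0.46. LSM5, at 0.11, had 0.15, -0.67 and -0.51, and SDCBP, at 0.12, had 0.15, -0.57 and -0.43.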

How the data were processed

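CELF1 RIP-Seq of 6 samples (3 IPs, 3 inputs) was analysed from 3 peak lists. Groups came from the sample titles. Ribosomal RNA had been removed. The authors aligned 40-nt reads to GRCh37 with TopHat (2.0.4 with Bowtie 0.12.7 in the submitters' notes), keeping up to 20 hits, and ran Piranha in 20-nt bins. Read counts were deposited by the authors as raw IP reads per passing bin. The p-value deposited by the authors is Piranha's, and whether it was corrected is not stated in the lists. The ratio deposited by the authors is the input covariate, 0.01 where there was none. Input reads were recovered from it as whole multiples of its smallest step (100% of bins with input, within 0.02 read).

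The members, gene lists and tests were chosen with earlier results of these data known. A bin's transcript strand was the reverse of the listed one. Regions were assigned as 3′ UTR, coding, then 5′ UTR. Reads in listed exon bins were summed per gene and tested with edgeR 4.0.16 (TMM, filterByExpr, pair and fraction, Benjamini-Hochberg over 10030 genes), with DESeq2 1.42.0 as an alternative. Log2 IP over input used list totals and a pseudocount of 1 read. The pairing follows from each list being an IP against its own input, and not from the data. UACC-62 IP deviations correlated with those of the same-numbered input (r = 0.847 over 10030 genes), but input is known only in bins listed in that IP, which builds in a correlation. Genes named are the members, STAT5A, pathway genes with a common peak, and the 3 genes nearest STAT3. A few other pathway genes behind small counts were named after their values had been seen. The fits, the recovery of input and the GRE search were tested on simulated data. Alternatives covered pairing, scaling, test, filters, bins, regions, thresholds, strand, mismatches and leaving out each sample. Counts limit precision, and intervals cover counting error only. R 4.3.3 and Python 3.11.15 were used.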

Additional observations from a re-analysis of the deposited data

How the results depend on the processing

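The calls of STAT5B and JAK2 (higher) and of JAK1 (lower) kept their direction and stayed past the threshold in all 10 alternatives. STAT3 was -0.01 and turned positive, without passing, with DESeq2 size factors (0.031), over 3′ UTR bins (0.25), by DESeq2 (0.031), and without UACC-62 replicate 1 (0.010) or 3 (0.055) but was -0.17 without SK-Mel-103 replicate 1, and passed over bins listed in all 3 samples (0.43). STAT2 turned to -0.029 with list totals. TYK2 passed as lower over 3′ UTR bins, over bins listed in all 3 samples and with list totals, and IL6ST with list totals, with no filter and without SK-Mel-103 replicate 1, while STAT6 lost its call with no replicate block, with DESeq2 size factors, by DESeq2, over bins listed in all 3 samples and without either UACC-62 replicate. The count of members called higher was 2 in each alternative but for bins listed in all 3 samples, where it was 3. The count called lower was 1 with no replicate block, with DESeq2 size factors and by DESeq2, 4 with list totals, 3 with no filter and over 3′ UTR bins, and 1 to 3 when each sample was left out. With no replicate block 1703 genes were called higher and 1886 lower. For the line difference the values of JAK2 and STAT5B turned positive with list totals (0.084 and 0.26), and that of JAK2 over bins listed in all 3 samples (0.11). There, 0 and 0 genes were called higher and lower with no replicate block, 17 and 37 by DESeq2, 81 and 149 over bins listed in all 3 samples, 187 higher with no filter and 99 lower with list totals, against 288 and 522. With 1 sample left out the line difference had no residual degrees of freedom and was not computed.

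Members with a common peak were 8 if every listed bin counted, 0 above 100 IP reads, and 1 to 3 with each sample left out. With the listed strand taken as the transcript strand, 1 member had a common peak. For the pathway genes the counts were 33 with every listed bin, 2 above 100 IP reads and 0 on the listed strand. For all genes they were 7935, 531 and 96, against 6 and 1728 in the main setting. Members with log2 IP over input above 0 in all 3 samples numbered 1, not 2, over bins listed in all 3 samples and over bins with more than 30 reads. With 1 and with 0 mismatches 2 members had a GRE, as did 4198 and 1508 of all genes. The cause of these changes was not tested, except that stricter thresholds leave fewer bins. No common peak was left above 100 reads to place in a region.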
